A study of Mus musculus with 64 samples.

Results

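Il10, Ebi3, Il12a, Tgfb1, Lrrc32, Itgb8 and Fgl2 encode secreted suppressive cytokines of regulatory T (Treg) cells and the proteins with which these cells display and release active transforming growth factor-beta (TGF-beta). They were chosen by name, as 7 of the 55809 genes counted, and their read pairs were followed in all 64 bulk RNA-seq libraries of the series. All 7 were present in every count table. Il12a passed the filter on low counts in no comparison, so 6 members were tested in the peripheral cells and 4 in the thymus.

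Treg cells restrain other immune cells partly through cytokines. Il10 encodes interleukin 10, and Ebi3 and Il12a encode the chains that pair to form interleukin 35. Tgfb1 encodes TGF-beta1, which is secreted inside an inhibitory shell formed by its own propeptide. Lrrc32 encodes GARP, which tethers this latent complex to the surface of Treg cells, and Itgb8 encodes the beta8 subunit of the integrin alpha-v beta-8, which pulls the shell open. Fgl2 encodes a fibrinogen-like protein that Treg cells secrete and that binds inhibitory Fc receptors on antigen-presenting cells. Foxp3 is the transcription factor that defines the lineage.

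In the degron experiment, every mouse had a Foxp3 allele that encodes a fusion with an auxin-inducible degron (AID), together with a ZsGreen reporter, and all received 5-ph-IAA for 7 days. The drug lets the plant ubiquitin ligase subunit TIR1(F74G), expressed from ROSA26 in the TIR1 group and absent from the ROSA26-WT group, remove Foxp3 protein. CD73-negative thymic Treg cells and active (CD62L low) Treg cells of spleen and lymph nodes came from adult heterozygous females (Foxp3 is X-linked, so other Treg cells of the same mouse used the unmodified allele), with 3 libraries per group. Infant Treg cells of spleen and lymph nodes, treated from the day after birth in hemizygous males, gave 4 libraries per group. In the reversible-allele experiment, a Thy1.1-STOP cassette between loxP sites (LSL) kept Foxp3 off in cells that had switched the locus on, in heterozygous females of adult age. In plusFoxp3 mice a Cd4-driven CreERT2 removed the cassette after a dose of 4-hydroxytamoxifen (4-OHT), and minusFoxp3 mice received 4-OHT without this Cre. Day 0 mice were untreated, so plusFoxp3 cells of day 0 also lacked Foxp3. Resting and active cells were collected at days 0, 3, 7, 14 and 28 with 2 libraries per group, and untreated Foxp3GFP mice gave 2 libraries of GFP-marked Treg cells (GFP Treg) per state. The plusFoxp3 cells of days 3 to 28 were sorted as GFP-positive and the minusFoxp3 cells as Thy1.1-positive, so the groups differ in sorting marker and Cre as well as in Foxp3.

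Library totals were 27753211 to 57419138 read pairs, and 3 read pairs corresponded to 0.0522 to 0.108 counts per 1000000 read pairs (CPM), which is the limit that a count of 0 allows. Foxp3 transcripts were at 47.3 to 81.5 CPM in resting and 44.3 to 65.3 CPM in active minusFoxp3 libraries, at 448 to 615 and 426 to 594 CPM in plusFoxp3 libraries from day 3, and at 635 to 817 CPM in GFP Treg cells. The T cell markers Cd3e, Cd3d, Cd3g, Trac, Cd4 and Cd5 were detected in every group. Of 5 megakaryocyte and platelet markers, a lineage that also carries GARP and TGF-beta1, the summed level was 0 to 4.05 CPM across all libraries, and Gp1bb was at 0 in all of them. In the 12 adult degron files the library name in the header and the sample to which the file is attached give opposite genotypes. Groups follow the library name here, and every direction between those genotypes turns round under the attachment. In the infants the library names in the headers match the titles and the genotype field disagrees with both, so these groups are named after the title, as titled TIR1 or titled WT, and the direction is unsettled. Titled WT replicate 4 stood apart from the other 3 libraries of its group and lay near the titled TIR1 libraries for several members, so infant results are given with and without it. The study calls the replicates of the adult degron and reversible-allele groups independent and biological. For the infants no source used here says so, and p-values there measure the spread between these libraries, which may be technical.

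The members lie on 6 chromosomes in GRCm39. Il10 spans chromosome 1, 130947582 to 130952711, on the plus strand. Ebi3 spans chromosome 17, 56259640 to 56264022, also on the plus strand, where 270 of its exonic bases are shared with the antisense gene Gm16712. The counting did not use strand, so reads of these bases cannot be assigned to either gene. Il12a lies at chromosome 3, 68597977 to 68605880, Tgfb1 at chromosome 7, 25386427 to 25404502, Lrrc32 at chromosome 7, 98138490 to 98151388, and Fgl2 at chromosome 5, 21577640 to 21583372, all on the plus strand. Itgb8 lies on the minus strand of chromosome 12, from 119121757 to 119202537.

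Ebi3, Lrrc32, Itgb8 and Fgl2 were the members that rose in plusFoxp3 or GFP Treg cells. The 250 bases before the start of the canonical transcript of each are shown because these genes moved in the same cells. The Lrrc32 window lies inside the span of that gene, as does the window of Il12a, which is not shown. The sequences are from GRCm39 and run 5′ to 3′ on the strand of the gene, at chr17:56259389-56259638 (plus), chr7:98138654-98138903 (plus), chr12:119202538-119202787 (minus) and chr5:21577390-21577639 (plus). Capitals mark the only matches found.
Ebi3: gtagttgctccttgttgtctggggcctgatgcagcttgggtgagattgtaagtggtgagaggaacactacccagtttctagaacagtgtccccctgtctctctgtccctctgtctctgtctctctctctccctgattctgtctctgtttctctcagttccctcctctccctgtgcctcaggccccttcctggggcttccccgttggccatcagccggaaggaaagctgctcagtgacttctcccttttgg
Lrrc32: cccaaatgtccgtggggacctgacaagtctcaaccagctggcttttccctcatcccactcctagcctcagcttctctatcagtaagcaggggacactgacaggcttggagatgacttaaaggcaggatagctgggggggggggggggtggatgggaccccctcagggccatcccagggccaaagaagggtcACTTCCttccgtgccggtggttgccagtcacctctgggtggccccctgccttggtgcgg
Itgb8: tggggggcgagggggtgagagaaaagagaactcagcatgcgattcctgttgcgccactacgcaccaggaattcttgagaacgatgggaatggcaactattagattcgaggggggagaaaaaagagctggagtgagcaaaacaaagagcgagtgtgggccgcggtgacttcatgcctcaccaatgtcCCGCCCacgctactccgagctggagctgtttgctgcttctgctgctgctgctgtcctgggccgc
Fgl2: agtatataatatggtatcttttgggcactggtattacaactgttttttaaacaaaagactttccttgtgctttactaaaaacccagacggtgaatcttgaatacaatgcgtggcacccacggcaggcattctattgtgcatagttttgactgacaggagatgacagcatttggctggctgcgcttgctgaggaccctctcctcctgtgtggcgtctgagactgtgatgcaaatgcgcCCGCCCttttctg
The motifs searched on both strands were forkhead (GTAAACA), AP-1 (TGANTCA), STAT (TTCNNNGAA), RUNX (TGTGGTT), ETS (GGAAGT) and the GC box (GGGCGG), and no 2 matches overlapped. These motifs occur in 2.72%, 6.17%, 7.7%, 4.23%, 19.0% and 36.3% of the 21770 promoters of protein-coding genes of the same length. Counted from the start of the canonical transcript, Lrrc32 holds an ETS match 59 to 54 bases before, Itgb8 a GC box match 64 to 59 bases before and Fgl2 a GC box match 13 to 8 bases before. Among the members not shown, Tgfb1 has 3 GC box matches, Il12a has an AP-1 and a GC box match, and Il10, like Ebi3, has none. These matches describe letters in this window and no binding site.

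Levels were compared between genes per kilobase of exon. In active GFP Treg cells the mean level was 83.7 CPM per kilobase for Lrrc32, 52.3 for Fgl2, 47.0 for Il10, 28.0 for Ebi3, 27.4 for Tgfb1 and 6.38 for Itgb8. In resting GFP Treg cells it was 90.1 CPM per kilobase for Lrrc32, 22.7 for Tgfb1, 17.0 for Fgl2, 7.97 for Ebi3, 5.48 for Il10 and 1.96 for Itgb8. Lrrc32 thus led this order in both states of GFP Treg cells, whereas Il10 moved from the fifth place in resting to the third in active cells.

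Il12a was close to undetected. Its 64 libraries held 106 read pairs in all, 42 libraries had none, and the highest level was 0.937 CPM in thymus WT replicate 2. Both replicates were at 0 in active plusFoxp3 cells at day 28, and active GFP Treg cells had 0.0380 and 0.250 CPM. Ebi3 was counted in every library, from 0.431 to 41.6 CPM, so the chains of interleukin 35 were detected very unequally in the same RNA.

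**Figure D1:**
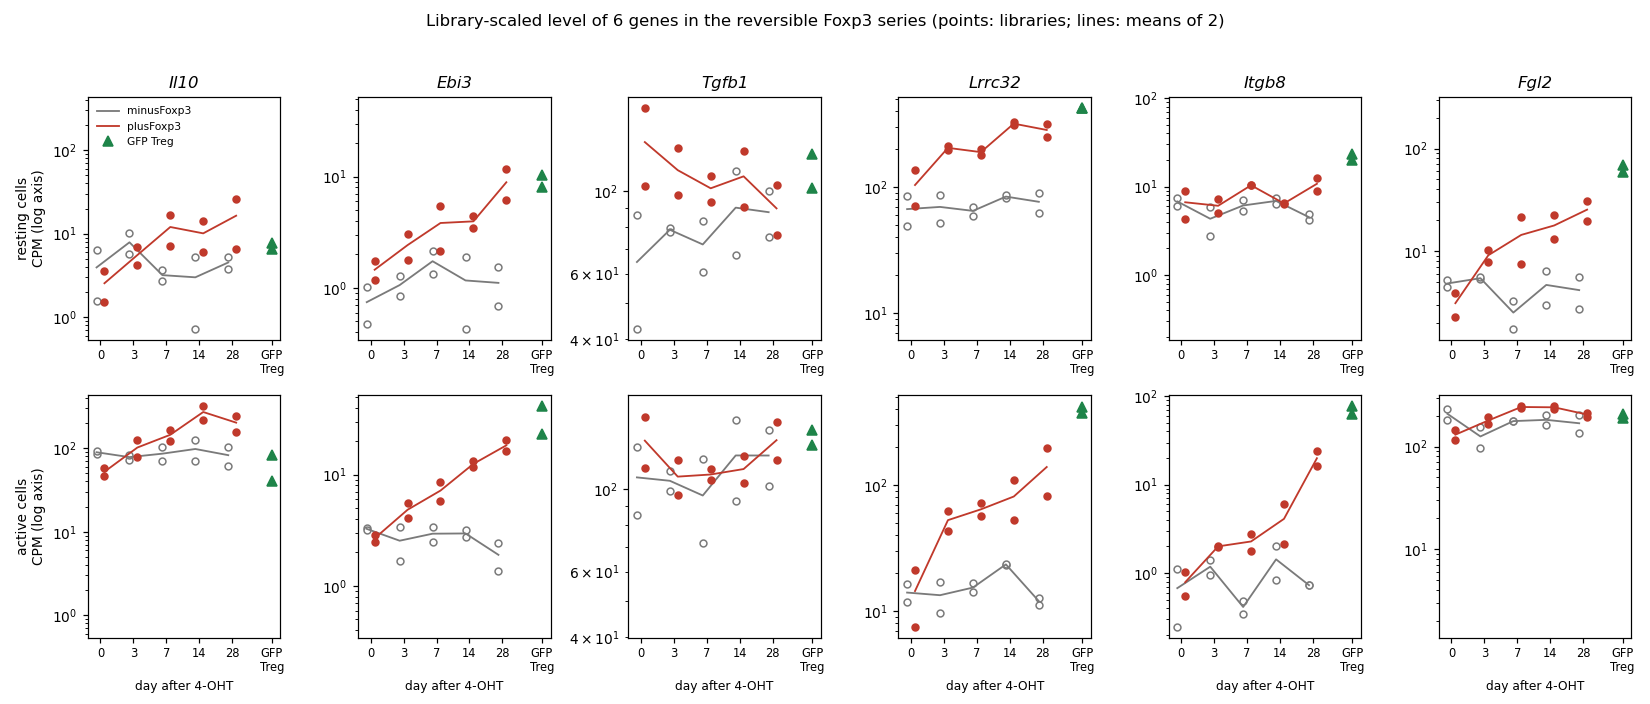
Level of 6 members in resting (upper row) and active (lower row) cells, in CPM on a log axis, at days 0, 3, 7, 14 and 28 after 4-OHT (spaced evenly) and in GFP Treg cells. Points are libraries, open for minusFoxp3 and filled for plusFoxp3, lines join the means of 2, and triangles are GFP Treg libraries. Lrrc32 and Ebi3 separate in both states, Itgb8 most in active cells and Fgl2 in resting cells, whereas Tgfb1 keeps to 42.7 to 168 CPM throughout.

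The comparison of plusFoxp3 with minusFoxp3 cells at each day asks what changes when Foxp3 is induced in cells that had lacked it. Before treatment, at day 0, no member was called in resting or active cells by edgeR (adjusted p under 0.05), against 0.00487% and 0.00481% of all genes tested. In each state 1 of 6 members had an unadjusted p under 0.05, Tgfb1 in resting and Fgl2 in active cells, as had 10.8% and 4.58% of all genes tested. DESeq2 also called none, against 0.219% and 0.0818% of all genes. These day 0 groups differ in genotype and share the lack of Foxp3. Resting Tgfb1 was already apart there, with 168 and 103 CPM in plusFoxp3 and 42.7 and 86.3 CPM in minusFoxp3 libraries. Active Fgl2 was at 116 and 145 CPM in plusFoxp3 and 183 and 233 CPM in minusFoxp3 libraries, also without overlap. Active Il10 had means of 52.2 CPM in plusFoxp3 and 89.3 CPM in minusFoxp3 cells (log2 fold change -0.76, SE 0.36). It was called without the filter on low counts (adjusted p = 0.0319 by edgeR). Active Il10, resting Fgl2 and Ebi3 of both states did not overlap either. With 2 libraries per group, a lack of overlap alone is therefore weak evidence, and its share over all genes was not counted.

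At day 28, Ebi3, Lrrc32 and Fgl2 rose in resting cells, and Ebi3, Lrrc32 and Itgb8 rose in active cells. In each state 3 of 6 members tested were called, all of them higher in plusFoxp3 cells. Of all genes tested, 0.945% were called in resting cells and 0.541% were called higher, and in active cells the shares were 1.85% and 0.9%. The median log2 fold change of the 6 members was 1.89 in resting and 2.30 in active cells, beside 0.01 and 0.03 over all genes tested.

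Lrrc32, the carrier of latent TGF-beta, was at 249 and 318 CPM in resting plusFoxp3 libraries of day 28 and at 90.1 and 62.5 CPM in minusFoxp3 libraries. The groups did not overlap, and the log2 fold change was 1.91 (SE 0.32, adjusted p = 0.00762, edgeR quasi-likelihood test with Benjamini-Hochberg adjustment). In active cells its level was lower in both groups, with 81.6 and 196 CPM in plusFoxp3 and 12.8 and 11.2 CPM in minusFoxp3 libraries. The active replicates of plusFoxp3 differed from each other by more than the resting ones did, yet both lay above every minusFoxp3 library. The log2 fold change there was 3.54 (SE 0.49, adjusted p = 0.000647 by edgeR), and 2.79 without plusFoxp3 replicate 2.

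Itgb8, the integrin subunit that releases TGF-beta, was nearly silent in active cells without Foxp3. Active minusFoxp3 libraries of day 28 had 0.733 and 0.725 CPM and plusFoxp3 libraries had 16.1 and 23.8 CPM, a 27.3-fold ratio of the means. The groups were far apart, with a log2 fold change of 4.78 (SE 0.63, adjusted p = 0.00045 by edgeR). Resting cells differed less, with 12.6 and 8.92 CPM in plusFoxp3 and 4.15 and 4.87 CPM in minusFoxp3 libraries. Although these did not overlap, the log2 fold change of 1.27 (SE 0.37) was not called (adjusted p = 0.168 by edgeR), except by DESeq2 (adjusted p = 0.0260) and without the filter on low counts (adjusted p = 0.0370).

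The difference between the states in the day 28 fold change was tested as an interaction over all 44 libraries. Itgb8 was called there, 1 of 6 members against 0.0818% of all genes tested, with a log2 fold change larger by 3.50 in active than in resting cells (SE 0.71, adjusted p = 0.0432 by edgeR). This call was lost when any of the 8 libraries of the comparison was left out, with log2 values from 3.21 to 3.75 over all alternatives. Fgl2 had a log2 difference of -2.35 (SE 0.57), in the opposite direction, which edgeR did not call (adjusted p = 0.173) and DESeq2 did (adjusted p = 0.0214). Lrrc32 had a log2 difference of 1.62 (SE 0.58, adjusted p = 0.611 by edgeR), and for Ebi3 it was 0.28 (SE 0.75, adjusted p = 1 by edgeR).

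Ebi3, which also forms interleukin 27, was called in both states. Its resting libraries of day 28 had 11.6 and 6.21 CPM with Foxp3 and 1.53 and 0.693 CPM without it. Its active libraries had 16.2 and 20.5 CPM with Foxp3 and 1.35 and 2.45 CPM without it. In neither state did the groups overlap, and the log2 fold changes were 3.01 (SE 0.65, adjusted p = 0.0383) in resting and 3.29 (SE 0.40, adjusted p = 0.0002) in active cells by edgeR. The resting value was 3.64 without minusFoxp3 replicate 1, where the call was lost.

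Fgl2 separated the groups in resting cells, whereas active cells of both groups held high levels of it. Resting plusFoxp3 libraries of day 28 had 31.0 and 19.7 CPM and minusFoxp3 libraries had 2.7 and 5.63 CPM. The 2 groups lay apart, with a log2 fold change of 2.62 (SE 0.53, adjusted p = 0.0252 by edgeR), which was 3.25 and no longer called without minusFoxp3 replicate 2. In active cells the values were 196 and 214 CPM in plusFoxp3 and 202 and 135 CPM in minusFoxp3 libraries, which overlapped, and the log2 fold change was 0.29 (SE 0.23, adjusted p = 0.785 by edgeR).

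Il10 and Tgfb1 were not called at day 28 in either state by edgeR with the filter on low counts. Il10 was at 26.3 and 6.56 CPM in resting plusFoxp3 and 3.79 and 5.27 CPM in resting minusFoxp3 libraries, and at 158 and 245 CPM and 61.5 and 103 CPM in the active ones. The groups did not overlap in either state, which at day 0 held for active Il10 too, in the other direction. The log2 fold changes of day 28 were 1.86 (SE 0.84) and 1.31 (SE 0.37), with adjusted p = 0.527 by edgeR and 0.0935. DESeq2 called Il10 in active cells (adjusted p = 0.0155), and a fit without the filter called it in both states. Tgfb1 had overlapping libraries in both states, with log2 fold changes of 0.04 (SE 0.35) and 0.15 (SE 0.28). Its transcript level in active cells was 120 and 152 CPM with and 102 and 144 CPM without Foxp3.

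The 3 resting calls of day 28 rested on all libraries. Leaving out either minusFoxp3 library left 0 members called, leaving out either plusFoxp3 library left 1, and a fit of these 4 libraries alone called none. The 3 active calls remained in every leave-one-out fit. In active cells the summed level of 7 CD8 T and NK cell markers was also lower in plusFoxp3 (25.3 to 28.4 CPM) than in minusFoxp3 libraries (46.3 to 54.8 CPM) of day 28. The plasmacytoid dendritic cell marker Siglech was at 5.05 to 68.9 CPM in active minusFoxp3 and at 0.310 to 0.456 CPM in active plusFoxp3 libraries at that day. The part of these markers in the results was not tested.

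**Figure D2:**
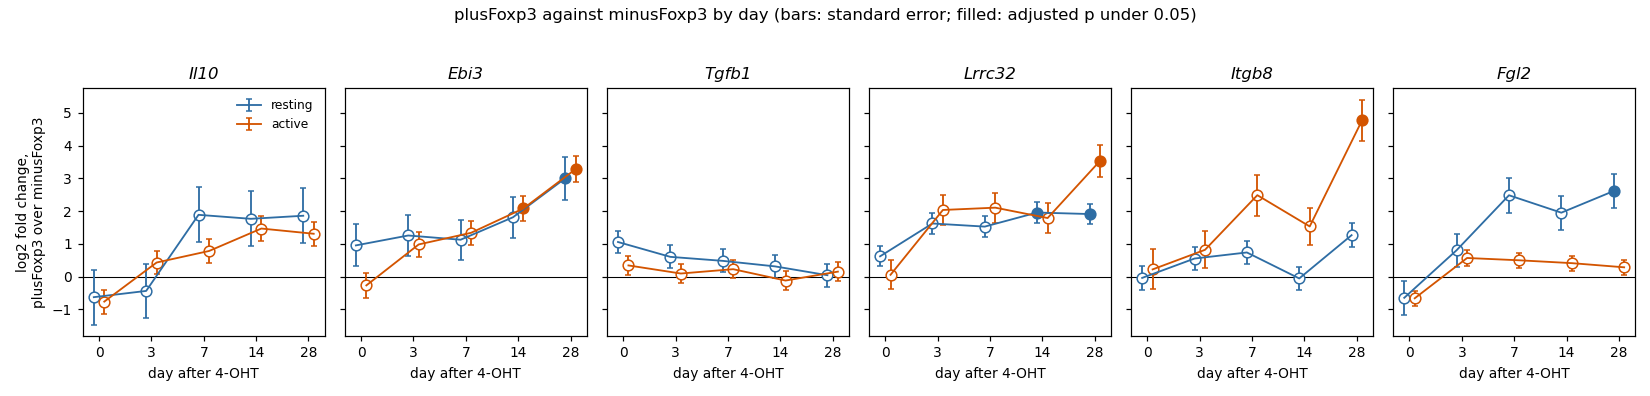
Log2 fold change of plusFoxp3 over minusFoxp3 cells for 6 members at days 0, 3, 7, 14 and 28 (spaced evenly), in resting (blue) and active (orange) cells. Bars are standard errors from the edgeR fit over the 22 libraries of a state, and filled symbols mark an adjusted p under 0.05. Itgb8 reaches 4.78 in active cells at day 28 and Fgl2 stays at 0.57 or below in active cells.

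Before day 28 few members were called. At day 3 none was called by edgeR in resting or active cells, against 0.0487% and 0.274% of all genes tested, and DESeq2 called 1 in each state, against 1.07% and 1.27%. At day 7 none was called in either state, against 0.0585% and 0.568%, and DESeq2 called 2 in resting and 3 in active cells, against 0.716% and 2.32%. At an unadjusted p under 0.05 there were 1 and 3 members at day 3, against 11% and 7.4% of all genes tested, and 3 and 5 at day 7, against 5.71% and 13%. At day 14 Lrrc32 was called in resting cells, 1 of 6 members against 0.268% of all genes tested, and Ebi3 in active cells, 1 of 6 against 0.732%. The Lrrc32 call was lost without either minusFoxp3 library or without plusFoxp3 replicate 1 of that day, and the Ebi3 call without any of its 4 libraries.

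Lrrc32 was apart from day 3 in every library. Resting plusFoxp3 cells had 213 and 195 CPM at day 3, 178 and 199 CPM at day 7 and 325 and 311 CPM at day 14, whereas the 10 resting minusFoxp3 libraries lay between 49.3 and 90.1 CPM. Its resting log2 fold changes were 1.62 (SE 0.31), 1.53 (SE 0.31) and 1.96 (SE 0.32) at these days, with adjusted p = 0.0962 by edgeR, 0.11 and 0.0109. In active plusFoxp3 cells it was at 61.9 and 43.4 CPM at day 3, 71.5 and 56.7 CPM at day 7 and 53.0 and 109 CPM at day 14. All 6 of these libraries exceeded the 10 active minusFoxp3 libraries, which lay between 9.69 and 23.7 CPM. The active log2 fold changes of 2.04 (SE 0.46), 2.11 (SE 0.46) and 1.79 (SE 0.46) had adjusted p = 0.0848 by edgeR, 0.053 and 0.0946.

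Ebi3 and Itgb8 were highest at the last day in active cells. Active Ebi3 was at 5.61 and 4.06 CPM at day 3, 8.59 and 5.79 CPM at day 7, 11.8 and 13.2 CPM at day 14, and 16.2 and 20.5 CPM at day 28. No library of days 3 and 7 reached those of days 14 and 28. Active Itgb8 was at 1.97 and 2.04 CPM at day 3, 1.78 and 2.78 CPM at day 7 and 2.16 and 6.06 CPM at day 14, all below the 16.1 and 23.8 CPM of day 28. Tested between days 28 and 3 within active plusFoxp3 cells, both rose, which made 2 of 6 members against 1.23% of all genes tested. The log2 fold changes were 1.91 (SE 0.38, adjusted p = 0.0168 by edgeR) for Ebi3 and 3.29 (SE 0.58, adjusted p = 0.00878 by edgeR) for Itgb8. No member was called without active plusFoxp3 D28 replicate 2 or without either replicate of day 3.

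In resting plusFoxp3 cells no member was called between days 28 and 3 by edgeR or DESeq2, against 0.0292% and 0.551% of all genes tested, and 3 had an unadjusted p under 0.05, against 6.27%. Resting Fgl2 was at 7.86 and 10.4 CPM at day 3, 21.3 and 7.49 CPM at day 7 and 22.6 and 13.0 CPM at day 14, so the libraries of day 7 overlapped those of both neighbours. Resting Ebi3 was at 3.05 and 1.80 CPM at day 3 and 5.50 and 2.16 CPM at day 7. These overlapped, as did the days 7 and 14, where Ebi3 had 3.46 and 4.47 CPM.

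Cells without Foxp3 were compared over the same interval. Between days 28 and 0 no member was called in resting or active minusFoxp3 cells, against 0% of all genes tested in both states. No member had an unadjusted p under 0.05, against 3.66% and 2.64% of all genes, and DESeq2 called none, against 0.0292% and 0%. The same minusFoxp3 groups of day 0 and day 28 serve in several of the comparisons here, which therefore are not independent.

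GFP Treg cells were compared with untreated minusFoxp3 cells to place these levels on a scale of cells that expressed Foxp3 throughout. In resting cells Ebi3, Lrrc32, Itgb8 and Fgl2 were higher in GFP Treg cells, 4 of 6 members, against 2.91% of all genes tested called and 1.7% called higher. In active cells Ebi3, Lrrc32 and Itgb8 were higher, 3 of 6, against 10% called and 5.21% called higher. The median log2 fold change of the members was 2.18 and 1.86, beside -0.01 and 0.00 over all genes tested.

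Among the members, Itgb8 had the largest log2 fold change in active and Fgl2 in resting cells. Active GFP Treg libraries had 78.1 and 63.0 CPM and active minusFoxp3 libraries of day 0 had 0.248 and 1.1 CPM, a 105-fold ratio of the means with a log2 fold change of 6.70 (SE 0.69, adjusted p = 5.17e-06 by edgeR). It was called in all 9 alternatives, and the log2 fold change was 5.99 without minusFoxp3 replicate 1 and 8.13 without replicate 2. In resting cells the levels were 23.6 and 19.9 CPM against 7.52 and 6.08 CPM, with a log2 fold change of 1.69 (SE 0.37, adjusted p = 0.0169 by edgeR). Both pairs of groups were separate. The resting call was lost without resting GFP Treg replicate 1 or without either minusFoxp3 library of day 0.

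Lrrc32 was at 425 and 420 CPM in resting and 369 and 415 CPM in active GFP Treg libraries, and at 49.3 and 84.2 CPM and 11.7 and 16.4 CPM in the matching minusFoxp3 libraries. GFP Treg cells of both states thus held close levels of the GARP transcript, while cells without Foxp3 did not. The log2 fold changes were 2.67 (SE 0.33, adjusted p = 0.000169 by edgeR) in resting and 4.83 (SE 0.52, adjusted p = 8.61e-06 by edgeR) in active cells. For Ebi3 they were 3.63 (SE 0.68, adjusted p = 0.00563 by edgeR) in resting cells, from 10.3 and 8.08 CPM against 0.474 and 1.01 CPM, a call that was lost without resting minusFoxp3 replicate 1 of day 0, with a log2 fold change of 4.34 without replicate 2. In active cells Ebi3 was at 23.1 and 41.6 CPM against 3.34 and 3.17 CPM, with a log2 fold change of 3.34 (SE 0.40, adjusted p = 2.68e-05 by edgeR).

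Fgl2 was at 69.8 and 59.0 CPM in resting GFP Treg cells and 5.25 and 4.42 CPM in resting minusFoxp3 cells of day 0, with a log2 fold change of 3.75 (SE 0.55, adjusted p = 0.000881 by edgeR). Active GFP Treg cells had 207 and 190 CPM and active minusFoxp3 cells 183 and 233 CPM, so the latter spanned the former, with a log2 fold change of -0.05 (SE 0.23). Il10 was at 40.4 and 82.7 CPM in active GFP Treg and 85.0 and 93.5 CPM in active minusFoxp3 libraries, with a log2 fold change of -0.51 (SE 0.36, adjusted p = 0.513 by edgeR). In resting cells the Il10 values were 7.84 and 6.51 CPM against 6.35 and 1.55 CPM. Tgfb1 was at 126 and 102 CPM against 42.7 and 86.3 CPM in resting cells, with a log2 fold change of 0.83 (SE 0.35, adjusted p = 0.307 by edgeR).

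Cells with induced Foxp3 were then set beside GFP Treg cells. In resting cells no member was called between GFP Treg and plusFoxp3 cells of day 28 by edgeR or DESeq2, against 0.0341% and 0.283% of all genes tested, and Itgb8 and Fgl2 had an unadjusted p under 0.05, against 3.96%. In active cells Il10 was called, 1 of 6 members against 2.01% of all genes tested, and it was lower in GFP Treg cells. Its 40.4 and 82.7 CPM there stood below the 158 and 245 CPM of plusFoxp3 cells at day 28, with a log2 fold change of -1.71 (SE 0.37, adjusted p = 0.0213 by edgeR). The call was lost without active GFP Treg replicate 1, without active plusFoxp3 D28 replicate 2 and in a fit of these 4 libraries alone, and the log2 fold change was -2.31 without active GFP Treg replicate 2. Lrrc32 and Itgb8 were not called in active cells, with log2 fold changes of 1.5 (SE 0.45, adjusted p = 0.121 by edgeR) and 1.83 (SE 0.54, adjusted p = 0.114 by edgeR), although both GFP Treg libraries exceeded both plusFoxp3 libraries. DESeq2 called both (adjusted p = 0.0181 for Lrrc32 and 0.0141 for Itgb8).

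On the scale of log2(CPM + 1), the mean of active Itgb8 had covered 16.3%, 18.3%, 28.3% and 67.2% of the distance from minusFoxp3 cells of day 0 to GFP Treg cells at days 3, 7, 14 and 28. Active Ebi3 had covered 15.2%, 31.7%, 57.1% and 74.7%, and active Lrrc32 38.7%, 44.9%, 50.3% and 65.7%. Lrrc32 thus had the largest share of the 3 at day 3 and the smallest at day 28. In resting cells the day 28 shares were 96.5% for Ebi3, 78.2% for Lrrc32, 61.5% for Fgl2 and 37.7% for Itgb8. These shares are descriptions of group means of 2 libraries and carry no test.

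Between active and resting cells the members differed in opposite directions. Among cells without Foxp3 at day 0, Il10, Ebi3 and Fgl2 were higher and Lrrc32 and Itgb8 lower in active than in resting cells, 5 of 6 members against 13.4% of all genes tested. Fgl2 went from 5.25 and 4.42 CPM in resting to 183 and 233 CPM in active cells, a 43.0-fold ratio of the means (log2 fold change 5.42, SE 0.47, adjusted p = 9.66e-09 by edgeR). Il10 went from 6.35 and 1.55 to 85.0 and 93.5 CPM (log2 fold change 4.50, SE 0.74, adjusted p = 7.57e-05 by edgeR), and its log2 fold change was 5.83 without resting minusFoxp3 replicate 1 and 3.82 without replicate 2. Neither pair of groups overlapped. Ebi3 went from 0.474 and 1.01 to 3.34 and 3.17 CPM (log2 fold change 2.12, SE 0.56, adjusted p = 0.01 by edgeR), a call that was lost without resting minusFoxp3 replicate 1 of day 0, with a log2 fold change of 2.78 without replicate 2.

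The carrier and the activator of TGF-beta went the other way. Lrrc32 fell by 2.25 on the log2 scale (SE 0.43, adjusted p = 0.000459 by edgeR), from 49.3 and 84.2 CPM in resting to 11.7 and 16.4 CPM in active cells. Itgb8 fell by 3.31 on the log2 scale (SE 0.54, adjusted p = 6.81e-05 by edgeR), from 7.52 and 6.08 CPM to 0.248 and 1.1 CPM, with log2 fold changes of -2.62 and -4.77 without active minusFoxp3 replicate 1 or 2. The same split held in level over all cells without Foxp3. The 12 resting libraries ranged from 2.79 to 8.98 CPM for Itgb8 and the 12 active ones from 0.248 to 2.03 CPM, and for Lrrc32 the ranges were 49.3 to 137 and 7.55 to 23.7 CPM. Tgfb1 was not called in the main fit, with a log2 fold change of 0.73 (SE 0.33, adjusted p = 0.163 by edgeR). It was called without the filter on low counts (log2 fold change 0.76, adjusted p = 0.00994 by edgeR). It was also called without resting minusFoxp3 replicate 2 of day 0, where the log2 fold change was 1.35.

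In GFP Treg cells, Il10 and Fgl2 were called higher in the active state, 2 of 6 members against 3.12% of all genes tested. Il10 was at 40.4 and 82.7 CPM in active and 7.84 and 6.51 CPM in resting libraries (log2 fold change 3.08, SE 0.69, adjusted p = 0.0103 by edgeR). Fgl2 was at 207 and 190 CPM in active and 69.8 and 59.0 CPM in resting libraries (log2 fold change 1.60, SE 0.40, adjusted p = 0.0221 by edgeR). In contrast to cells without Foxp3, Itgb8 had a higher level in active than in resting GFP Treg cells, a 3.25-fold ratio of the means that just missed the threshold (log2 fold change 1.68, SE 0.48, adjusted p = 0.0516 by edgeR). Lrrc32 had a log2 fold change of -0.13 (SE 0.41, adjusted p = 0.931 by edgeR). How far these differences between states differed between GFP Treg and minusFoxp3 cells was not tested.

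The 2 calls in GFP Treg cells depended on single libraries. Leaving out 1 library left 1 call without active GFP Treg replicate 1 and none without any of the other 3 libraries, with a log2 fold change of 2.48 for Il10 without active GFP Treg replicate 2, whereas RLE size factors, DESeq2, the fit without a count filter and the replicate block each called 4. Markers of myeloid and dendritic cells differed between the states of minusFoxp3 cells too. The summed level of 11 such markers was 280 to 298 CPM in active and 104 to 140 CPM in resting minusFoxp3 libraries of day 0, of which Cst3 made up most, and Siglech was at 2.37 to 78.5 CPM in active and at 0.0647 to 0.474 CPM in resting libraries. Of the same list, Csf1r, Adgre1, Itgam and Clec9a stayed at means of 1.71 CPM or less in both states, unlike Siglech in active cells. In GFP Treg cells the summed level was 125 to 159 CPM in active and 129 to 142 CPM in resting libraries. In bulk RNA, fewer cells of a type and less RNA per cell cannot be told apart, and the part of these markers in the results was not tested.

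**Figure D3:**
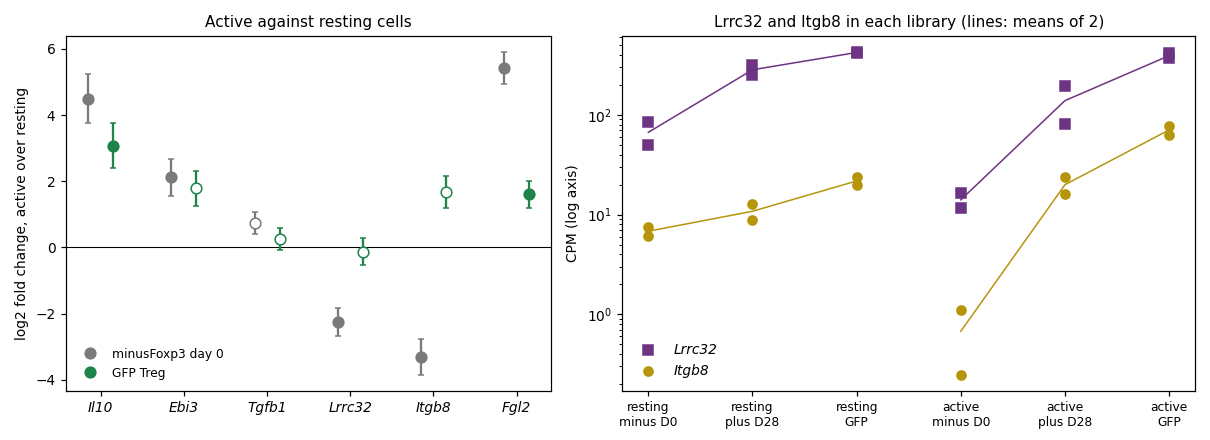
Left, log2 fold change of active over resting cells for 6 members in minusFoxp3 cells of day 0 (grey) and GFP Treg cells (green), with standard errors and with filled symbols for an adjusted p under 0.05. Right, CPM of Lrrc32 and Itgb8 on a log axis in each library of 6 groups, with lines through the means of 2. Itgb8 is at 0.248 and 1.1 CPM in active minusFoxp3 cells and at 78.1 and 63.0 CPM in active GFP Treg cells.

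The degron comparisons ask what 7 days of Foxp3 protein removal change in Treg cells. Nascent thymic and infant cells may have arisen during the treatment, so they need not have held Foxp3 protein before it. In the thymus no member was called among 4 tested, against 0% of all genes tested, and DESeq2 called none, against 1.1%. At an unadjusted p under 0.05 there was 1 member, against 7.37% of all genes. Lrrc32 had the lowest unadjusted p of the 4, with 164, 139 and 130 CPM in TIR1 and 156, 195 and 200 CPM in WT libraries. These overlapped, and the log2 fold change was -0.35 (SE 0.13, adjusted p = 0.633 by edgeR). Tgfb1 was at 205 to 220 CPM in TIR1 and 208 to 229 CPM in WT libraries and Itgb8 at 9.16 to 11.8 and 10.4 to 12.1 CPM. Ebi3 ranged from 1.17 to 4.91 CPM in TIR1 and from 1.70 to 4.98 CPM in WT libraries. Il10 was at 0 in all 6 libraries, which allows up to 0.106 CPM, and Fgl2 was at 0 in 5 of them and at 1.65 CPM in TIR1 replicate 2.

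In active Treg cells again none of 6 members was called, against 0% of all genes tested, by edgeR or 0.144% by DESeq2, and 3 had an unadjusted p under 0.05, against 4.62%. Il10 was at 113, 64.1 and 76.2 CPM in TIR1 and 132, 135 and 156 CPM in WT libraries. Each TIR1 library lay below each WT library, with a log2 fold change of -0.77 (SE 0.22, adjusted p = 1 by edgeR). Fgl2 was at 112, 95.7 and 92.9 CPM in TIR1 and 95.7, 146 and 215 CPM in WT libraries, with a log2 fold change of -0.63 (SE 0.26). Tgfb1 had a log2 fold change of -0.43 (SE 0.19) and overlapping groups, with 128 to 150 CPM in TIR1 and 134 to 212 CPM in WT libraries.

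Among the TGF-beta genes the active degron libraries showed a wide spread. Lrrc32 was at 27.5, 73.1 and 26.3 CPM in TIR1 and 51.9, 107 and 63.9 CPM in WT libraries, with a log2 fold change of -0.86 (SE 0.43). Itgb8 was at 10.5, 12.0 and 11.6 CPM in TIR1 libraries, close together, and at 13.8, 2.86 and 3.06 CPM in WT libraries. WT replicate 1 thus stood above the TIR1 libraries and the other 2 below them, and the log2 fold change was 0.75 (SE 0.62). Ebi3 had overlapping groups at 14.2 to 25.9 and 14.6 to 23.6 CPM.

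Infant libraries split on 1 sample. With all 8, no member was called among 6, against 0.0185% of all genes tested, while 4 members had an unadjusted p under 0.05, against 17.4% of all genes. DESeq2 called Tgfb1, Itgb8 and Fgl2, 3 members against 6.83% of all genes, and gave Il10 no adjusted p. Without titled WT replicate 4, edgeR called 4 members against 11% of all genes tested, with Il10 and Fgl2 higher and Tgfb1 and Itgb8 lower in titled TIR1 libraries. That library was set apart on these same values, so the fit without it is a description and its adjusted p-values are no support. Leaving out any other single library left 0 members called. Il10 was at 24.2, 18.9, 22.1 and 27.9 CPM in titled TIR1 and at 2.65, 1.31, 0.726 and 20.3 CPM in titled WT libraries. The last of these, replicate 4, fell within the range of the titled TIR1 group, and the other 3 were far below it. The log2 fold change was 1.92 (SE 1.00, adjusted p = 0.377 by edgeR) with that library and 3.91 (SE 0.35, adjusted p = 4.78e-05 by edgeR) without it.

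Fgl2 followed the same pattern. It was at 83.7, 75.3, 79.7 and 89.7 CPM in titled TIR1 and 20.5, 23.4, 21.1 and 67.4 CPM in titled WT libraries. Here replicate 4 remained just below the titled TIR1 libraries, and the log2 fold change went from 1.33 (SE 0.39, adjusted p = 0.146 by edgeR) to 1.94 (SE 0.10, adjusted p = 1.05e-06 by edgeR) without it. Itgb8 ran the other way, with 4.12, 6.70, 3.85 and 3.62 CPM in titled TIR1 and 18.9, 14.5, 18.8 and 3.44 CPM in titled WT libraries. Replicate 4 was the lowest of all 8, and the log2 fold change went from -1.58 (SE 0.47, adjusted p = 0.141 by edgeR) to -1.90 (SE 0.22, adjusted p = 0.000208 by edgeR).

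Tgfb1 was at 140, 146, 167 and 158 CPM in titled TIR1 and 206, 255, 226 and 154 CPM in titled WT libraries, again with replicate 4 inside the range of the other group. Its log2 fold change was -0.44 (SE 0.14, adjusted p = 0.141 by edgeR), and -0.56 (SE 0.09, adjusted p = 0.00232 by edgeR) without that library. Lrrc32 was at 481, 429, 488 and 400 CPM against 472, 618, 506 and 416 CPM, the highest group levels of this gene in the series. Those groups overlapped, with a log2 fold change of -0.14 (SE 0.12, adjusted p = 0.555 by edgeR). Without replicate 4 the Lrrc32 value was -0.22 (SE 0.10, adjusted p = 0.211 by edgeR). Ebi3 lay at 9.57 to 13.5 and 6.74 to 10.8 CPM, overlapping too. Its log2 fold change was 0.46 (SE 0.18, adjusted p = 0.216 by edgeR), and 0.47 (SE 0.20, adjusted p = 0.170 by edgeR) without replicate 4. The summed level of 8 markers of the active state moved with Il10 and Fgl2, at 625 to 869 CPM in titled TIR1 and 214 to 653 CPM in titled WT libraries, and its part in the result was not tested.

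**Figure D4:**
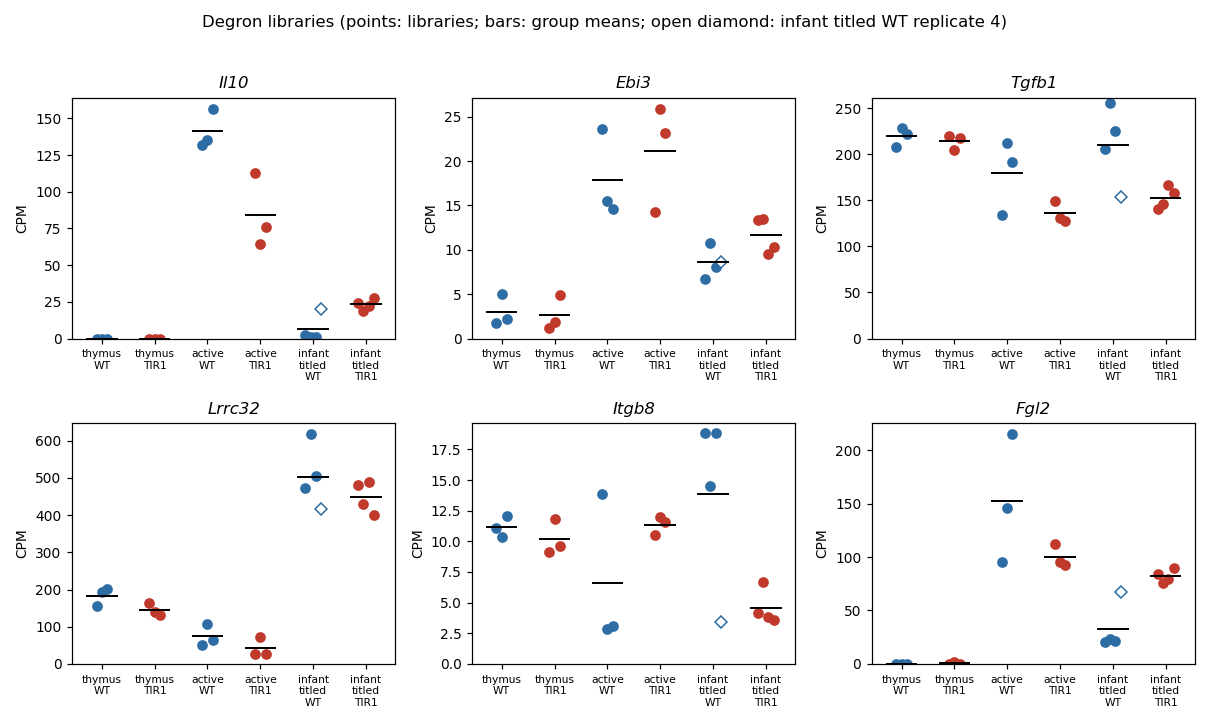
CPM of 6 members in the 20 degron libraries, from a baseline of 0, with WT in blue and TIR1 in red. Points are libraries, bars are group means, and the open diamond is infant titled WT replicate 4. That diamond lies with the titled TIR1 libraries for Il10, Tgfb1 and Itgb8, and Il10 is at 0 in all 6 thymus libraries.

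Active WT cells were compared with thymus WT cells. These groups differ in maturity, in activation state and in tissue, which cannot be told apart here. Il10, Ebi3 and Fgl2 were higher and Lrrc32 lower in active cells, 4 of 6 members against 23% of all genes tested. Il10 and Fgl2 passed the filter on low counts here only through the active libraries. Their calls therefore followed from being tested and add no support to this count. Il10 was at 132, 135 and 156 CPM in active and at 0 in all 3 thymus libraries, so its level was at least 1366-fold higher against a floor of 3 counts per library. Fgl2, at 95.7, 146 and 215 CPM in active and 0 in all 3 thymus libraries, was at least 1470-fold higher by the same floor. Ebi3 rose from 1.70, 4.98 and 2.24 CPM to 23.6, 15.5 and 14.6 CPM (log2 fold change 2.68, SE 0.57, adjusted p = 0.00493 by edgeR), or by 3.28 on the log2 scale without thymus WT replicate 2.

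Lrrc32 was at 51.9, 107 and 63.9 CPM in active and 156, 195 and 200 CPM in thymus WT libraries, so the nascent cells held more of it. The groups did not overlap, and the log2 fold change was -1.21 (SE 0.36, adjusted p = 0.0276 by edgeR). This call was lost in 4 of 6 leave-one-out fits, without active WT replicate 1 or 3 or without thymus WT replicate 2 or 3. Itgb8 had a log2 fold change of -0.67 (SE 0.52) and Tgfb1 of -0.20 (SE 0.14), and neither was called. Of 8 double-positive thymocyte markers, the summed level was 57.4 to 69.2 CPM in thymus and 11.1 to 15.3 CPM in active WT libraries, with Rag1, Rag2 and Ptcra at 0 in the thymus WT group.

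Ordered by mean level over all 28 groups, Itgb8 stood highest in active GFP Treg cells (70.6 CPM), without overlap with resting GFP Treg cells (21.7 CPM), whose libraries overlapped those of active plusFoxp3 cells of day 28 (19.9 CPM). Lrrc32 was highest in the infants, which overlapped resting GFP Treg cells. Il10 peaked in active plusFoxp3 cells of day 14 (270.2 CPM) and day 28 (202 CPM), which overlapped. Ebi3 was highest in active GFP Treg cells (32.3 CPM) and then in active degron TIR1 cells (21.1 CPM), which overlapped as well. Fgl2 led in active plusFoxp3 cells of days 7 and 14 at 243 and 241 CPM. Neighbouring groups were free of overlap in 0 of 27 steps for Tgfb1, 2 for Ebi3 and Itgb8, 3 for Il10, and 5 for Lrrc32 and Fgl2. The same count was not made over all genes, so these numbers have no background to be read against. The degron and the other libraries were counted with different settings, so this order sets levels side by side across those settings.

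Over the 22 groups of the reversible-allele and GFP Treg libraries, with the mean of each state subtracted from log2(CPM + 1), Ebi3 and Lrrc32 had a Pearson correlation of 0.948 across group means. Lrrc32 and Itgb8 had 0.871, and Ebi3 and Itgb8 0.862. Among 10501 genes, the genes most like Itgb8 were Ephx1 (0.973), Tnfrsf9 (0.969) and Tmem158 (0.964). For Lrrc32 they were ENSMUSG00000120754 (0.968), Slc28a2b (0.963) and Itih5 (0.957), and for Ebi3 they were Pglyrp1 (0.969), ENSMUSG00000120754 (0.964) and Gm6637 (0.964). Fgl2 was most like Niban1 (0.941), Acot7 (0.918) and Prdm1 (0.915), Il10 like Glrx (0.910), F730043M19Rik (0.842) and Lgmn (0.840), and Tgfb1 like Sf3a2 (0.933), Clptm1 (0.927) and Capn1 (0.926). Groups of a state share the mean that was subtracted, and these correlations are descriptions over 22 points.

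Other genes that make, hold or release TGF-beta moved in both directions. Of 15 tested of 17 listed, 1 rose in resting plusFoxp3 cells at day 28 and 3 rose and 1 fell in resting GFP Treg cells. Of 16 tested in active cells, 1 rose and 1 fell at day 28 and 4 rose and 4 fell in GFP Treg cells. Of all genes tested, 0.945% were called in resting cells at day 28 and 2.91% in resting GFP Treg cells, against which these and the following lists are read. The active shares were 1.85% and 10%. Mmp9, a protease, rose in all 4 comparisons, by 5.33 on the log2 scale (SE 0.54, adjusted p = 3.58e-05 by edgeR) in active cells at day 28, from a mean of 6.94 to 277 CPM. Ltbp4, which anchors latent TGF-beta in matrix, and Itgb1, an integrin subunit, were among those higher in GFP Treg cells (log2 fold changes 3.38 in active and 1.75 in resting cells). Itgb5, Tgfb3 and Itgb3 were lower in active GFP Treg cells, with log2 fold changes of -3.59, -3.40 and -2.88.

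Of 17 genes of TGF-beta reception and signalling, all were tested in resting and 16 in active cells. In resting cells 1 rose and 1 fell at day 28 (0.945% of all genes called) and 1 rose and 3 fell in GFP Treg cells (2.91%), and in active cells 1 rose and 2 fell at day 28 (1.85%) and 3 rose and 2 fell in GFP Treg cells (10%). Itgae, an integrin subunit that T cells raise in response to TGF-beta, was higher in all 4 comparisons, with a log2 fold change of 7.27 (SE 0.77, adjusted p = 5.38e-05 by edgeR) in resting GFP Treg cells, from a mean of 1.41 to 215 CPM. It is also 1 of the 8 markers of the active state. The receptor genes Tgfbr3 and Tgfbr2 fell by 2.32 (SE 0.28, adjusted p = 0.0002 by edgeR) and 1.46 (SE 0.29, adjusted p = 0.0113 by edgeR) on the log2 scale in active cells at day 28. Tgfbr1 and Smad3 were higher in active GFP Treg cells, with log2 fold changes of 0.79 and 0.75, and the coreceptor Eng was lower at -5.79.

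Partners and receptors of the IL-12 and IL-10 families showed no call at day 28 in either state among 13 tested. In GFP Treg cells 2 rose in resting and 3 in active cells. Il6st, the shared receptor chain gp130, and Il10ra, which binds interleukin 10, were higher in active GFP Treg cells with log2 fold changes of 1.78 and 0.98, and Il12rb1 in resting ones with 1.71. Of 10 factors known to act at Il10, none was called in resting cells and 1 fell in active cells at day 28. In GFP Treg cells 2 rose in resting cells, and 2 rose and 6 fell in active cells, where 10% of all genes tested were called and the median log2 fold change of these factors was -1.11. Among them Ahr, Bhlhe40 and Maf had log2 fold changes of -2.20, -1.61 and -1.46 in active GFP Treg against minusFoxp3 cells of day 0, a comparison in which Il10 was not called. Prdm1 and Gata3 rose in resting GFP Treg cells by 2.32 and 0.77 and Batf in active ones by 0.70, on the log2 scale. Of 4 genes around Fgl2, 3 were tested, and Lag3, the receptor of its relative Fgl1, had a log2 fold change of -1.95 in active GFP Treg cells (adjusted p = 0.000107 by edgeR). In the degron comparisons no gene of these 5 lists was called, against 0% of all genes tested in thymus and active cells and 0.0185% in the infants. With so few calls over all genes, this is no result about the lists.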

How the data were processed

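RNA from sorted Treg cells was amplified with SMART-Seq v4, a kit that does not mark strand, and sequenced in pairs (64 libraries). The authors deposited raw counts, 1 table per library, of read pairs per gene from featureCounts 2.0.3, per the file headers, on GRCm39 (mm39) with GENCODE gene names. The 20 degron libraries were counted with a minimum mapping quality in the header, and the other 44 headers show none. The aligner is STAR in the study's methods and Bowtie2 in the submitters' processing notes.

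Counts were scaled by the library total to counts per 1000000 read pairs (CPM), and divided by the union exon length for levels per kilobase. Library totals of 27753211 to 57419138 read pairs put 3 counts at 0.0522 to 0.108 CPM, for counting error only. Groups came from the labels, and for the 12 adult degron files from the library name in the header. Genes whose count averaged 10 or more in a fit were tested with the quasi-likelihood test of edgeR 4.0.16 in R 4.3.3 (TMM, Benjamini-Hochberg adjustment over all genes tested, threshold 0.05), and tested on simulated data first. Degron genotypes were compared in fits of 6, 6 and 8 libraries, active with thymus WT cells in a fit of 12, reversible-allele groups in fits of the 22 libraries of a state, and the states in a fit of all 44. Alternatives were DESeq2 1.42.0, RLE size factors, a replicate block, a fit without the filter on low counts, only the libraries compared, each library left out, and the recorded attachment of the adult degron files.

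The members and the gene lists were chosen with earlier results of these data known. All 7 members are described, and of each pathway list up to 3 called genes per direction are named, by size of change. Promoter sequences are the 250 bases before the start of the canonical transcript in GENCODE vM39 on GRCm39. No 2 of 46 replicate pairs agreed within sampling noise.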

Additional observations from a re-analysis of the deposited data

Results flagged for a closer look

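For 4 members 1 library lay far from the others of its infant group, among 14 combinations of member and infant group, where chance flags about 1 in 20. Il10 in titled WT replicate 4 was at 20.3 CPM, far above the other 3 titled WT libraries. Fgl2 in the same library was at 67.4 CPM, again far above the other 3. Itgb8 in titled TIR1 replicate 2 was at 6.70 CPM, above the other 3 titled TIR1 libraries, and Il12a in titled WT replicate 3 was at 0.0605 CPM with the other 3 at 0, a level that equals 3 read pairs.

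The day 28 difference of Itgb8 between plusFoxp3 and minusFoxp3 cells itself differed between states, by 3.50 on the log2 scale (active minus resting, edgeR adjusted p = 0.0432). Both active and both resting plusFoxp3 libraries were above their minusFoxp3 libraries, so the states differed in size and not in direction. In the edgeR fit it was the only member for which the test of the difference passed, while DESeq2 called Fgl2 as well and a fit without the filter on low counts called Fgl2 and Lrrc32. In edgeR it no longer passed when any 1 of the 8 libraries was left out.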

How the results depend on the processing

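Of 1377 values of single members under an alternative, 1198 kept their direction and their side of the threshold, 51 changed sign while uncalled in both fits, 55 fell back across the threshold, 73 passed it newly and 0 reversed while called. Over all genes, DESeq2 called a larger share than edgeR in 24 of 25 comparisons and the fit without a count filter in 21, so their counts of members stand against larger shares there. DESeq2 called 3 members in active GFP Treg against plusFoxp3 cells of day 28, 1, 3 and 3 in active plusFoxp3 against minusFoxp3 cells at days 3, 7 and 14, 1, 2 and 2 in resting cells at those days, 4 between states of GFP Treg cells, 2 in the day 28 difference between states and 3 in the infants. Without a count filter the numbers called were 1, 1, 4 and 4 in active cells at days 0, 3, 7 and 14, and 1, 1, 3, 4 and 5 in resting cells at days 0, 3, 7, 14 and 28. That setting also called 3 in active GFP Treg against plusFoxp3 cells of day 28 and 1 in the resting comparison, 4 and 3 between days 28 and 3 of active and resting plusFoxp3 cells, 4 between states of GFP Treg cells and 3 in the day 28 difference. Fits of only the libraries compared called 1 between days 28 and 3 of active plusFoxp3 cells, 2 in active cells at day 14, 1 in resting cells at day 3 and 0 in resting cells at day 28. RLE size factors called 4 between states of GFP Treg cells.

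Leaving out 1 library at a time gave 0 to 4 members called in the infants (4 without titled WT replicate 4), 0 to 1 for active GFP Treg against plusFoxp3 cells of day 28, 0 to 2 between days 28 and 3 of active plusFoxp3 cells, 0 to 0 in active cells at day 14, 0 to 1 in active cells at day 7, 0 to 1 between states of GFP Treg cells, 0 to 0 for the day 28 difference, 2 to 4 for resting GFP Treg against minusFoxp3 cells of day 0, and 0 to 1 in resting cells at days 0, 14 and 28. The number was 3 to 3 in active cells at day 28 and in active GFP Treg against minusFoxp3 cells. The single calls were Lrrc32 in active cells at day 7 without minusFoxp3 replicate 2 and Tgfb1 in resting cells at day 0 without plusFoxp3 replicate 2. Where an arm was left with 1 library, that library was assumed to vary like the other groups.

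With replicate numbers as a block, 2 members were called in active cells at day 14 and 4 between states of GFP Treg cells. The calls gained were Il10 in active cells at days 14 and 28, and Ebi3 and Itgb8 between states, and all other counts stayed within 1.5 times of those without the block. The labels name no shared animal. Yet thymus and active degron libraries of the same genotype and replicate carry the same leading number in their library names. Same-numbered libraries had correlations of -0.203 to 0.129 in the 4 comparisons of 3 or more pairs and -0.194 to 0.408 in the 21 of 2 pairs. The highest was between active and resting minusFoxp3 cells of day 0. In the comparisons of 3 or more pairs, 7 of 26 libraries lay closest to their own number. Whether same-numbered libraries share an animal is not settled by these values, and the main fits used no pairing. Under the recorded attachment of the adult degron files, 5 members were called between active and thymus WT cells. The cause of these differences was not tested. With 2 libraries per group, and Il12a at 106 read pairs in all, differences of low members were often not detectable.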
